A study of Mus musculus with 8 samples.

Results

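Ccr8, Ccr4, Ccr2, Ccr7, Cxcr3, Cxcr4, Cxcr6, S1pr1 and Ccr10 encode 9 receptors that steer T cells into and out of tissues. They were taken by gene symbol as a named set of chemokine and egress receptors, and all 9 are among the 49212 genes counted in each library. RNA was sequenced from effector Treg (eTreg) cells of C57BL/6 mice bearing B16-OVA tumors, a melanoma line that expresses ovalbumin, to learn how loss of Blimp1 alters these cells. The mice were immunized with NP-OVA in complete adjuvant on day 0 and in incomplete adjuvant on day 7, and tumors measured at most 1.5 cm3. CD45+CD44+CD4+CD3+ cells positive for YFP were sorted from spleen and tumor. There were 4 groups of 2 libraries, with 27834676 to 43903859 counts per library.

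WT mice carried FoxP3YFP-Cre, in which the Foxp3 gene drives both YFP and Cre. KO mice were Prdm1fl/flFoxP3YFP-Cre, in which that Cre removes floxed Prdm1, the gene of Blimp1, in cells that express Foxp3 or did so before. Both genotypes therefore carry the Cre and the reporter. The study's general methods put its mice at 5 to 10 weeks of age unless stated otherwise and draw them from both sexes, and neither is given per library. Whether the libraries of a group came from separate mice is not stated, so p-values measure only the spread between these samples, which may be technical.

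Chemokine receptors are G protein-coupled receptors that let a cell follow gradients of small secreted proteins, and each receptor reads its own set of ligands. Naive and central T cells use Ccr7 to enter lymphoid tissue and S1pr1 to leave it along a gradient of sphingosine-1-phosphate (S1P). Activated Treg cells lose part of that program and take up receptors for inflamed tissue and tumor, Ccr8 and Ccr4 among them.

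The labels were first set against the transcripts. Levels are RPKM, reads per kilobase of exon in libraries brought to the same total with TMM scaling over the 8 libraries, and the values of a group are listed as library 1 and then library 2. Prdm1 stood at 16.5 and 13.7 RPKM in the tumor libraries labelled KO and at 19.7 and 35.0 RPKM in those labelled WT. In spleen it stood at 7.40 and 9.72 RPKM in the libraries labelled KO and at 9.84 and 3.82 RPKM in those labelled WT. The genotypes overlapped in spleen and did not overlap in tumor, and since these counts sum all exons of the gene they do not check removal of the floxed part. The groups are therefore named by their labels throughout.

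Foxp3, the factor that defines Treg cells, stood at 6.38 and 15.2 RPKM in WT tumor, 17.5 and 14.6 RPKM in WT spleen, 2.56 and 0.750 RPKM in KO tumor and 10.8 and 14.1 RPKM in KO spleen. Cd4 stood at 200.2 and 269 RPKM in WT tumor, 221 and 95.1 RPKM in WT spleen, 36.6 and 16.4 RPKM in KO tumor and 250.2 and 217 RPKM in KO spleen. Both transcripts were lower in the 2 KO tumor libraries than in the other 6. Cd8a, which cells of the sort gate should lack, stood at 59.6 and 334 RPKM in KO tumor, 19.7 and 2.66 RPKM in WT tumor and between 0.641 and 1.64 RPKM in the 4 spleen libraries. The ratio of Cd8a to Cd4 was 1.63 and 20.3 in KO tumor and at most 0.0986 in the other 6 libraries.

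The 7 Treg identity genes, of which Ctla4 had the highest mean RPKM, summed to 339 and 629.5 RPKM in KO tumor, 2681 and 3843 RPKM in WT tumor, 782 and 924 RPKM in WT spleen and 558 and 617 RPKM in KO spleen. The 10 genes of activated tissue Treg cells, led by Tnfrsf4, summed to 548 and 925 RPKM in KO tumor, 3367 and 4158 RPKM in WT tumor, 1683 and 1920.2 RPKM in WT spleen and 1223 and 1130.3 RPKM in KO spleen. On both lists the KO tumor libraries were below the WT tumor libraries, and the sum for Treg identity in KO tumor library 2 lay within the spleen range. Ctla4 alone made up 394 RPKM of that sum and was higher in KO tumor than in KO spleen, while the other 6 genes of the list were each lower without overlap, as 32.9% of all genes were. The 7 T cell lineage genes, led by Cd3d, summed to 507 RPKM in KO tumor library 1 and to between 1245 and 2206 RPKM in the other 7. None of these 24 genes was at 0 counts in any library. The KO tumor libraries thus go against the label of CD4 Treg cells in these transcripts, and KO tumor library 1 also held the least T cell transcript.

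The 11 genes of monocytes and macrophages, led by Lyz2, summed to 11607 and 2018 RPKM in KO tumor, 2352 and 393 RPKM in WT tumor, 228 and 1205 RPKM in WT spleen and 146 and 382 RPKM in KO spleen, with none at 0. The 6 melanoma genes, led by Tyrp1, summed to 1363 and 365 RPKM in KO tumor, 876 and 485 RPKM in WT tumor and at most 3.39 RPKM in spleen, where Tyr and Slc45a2 had 0 counts in all 4 libraries, Dct in 3 and Tyrp1 in both KO libraries. The tumor libraries therefore held transcripts of other cells in amounts that differed between replicates. In bulk RNA, fewer cells of a type and less RNA per cell cannot be told apart, and the part of these transcripts in the results below was not tested.

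**Figure D1:**
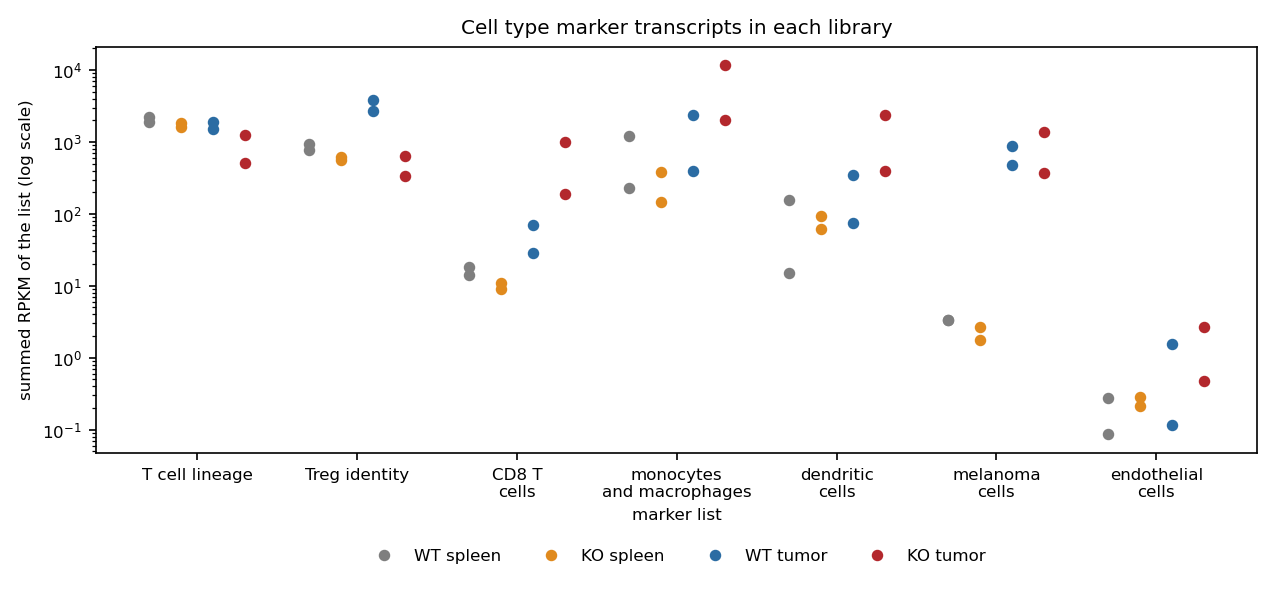
Summed RPKM of marker lists (log axis) in each of the 8 libraries, with 1 point per library and color for the group. The KO tumor libraries lie below the WT tumor libraries for Treg identity genes (339 and 629.5 against 2681 and 3843 RPKM) and above all others for CD8 T cell genes (187 and 1013 RPKM).

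In WT splenic eTreg cells Cxcr3 had the highest mean of the 9 receptors (197 ± 11.6 RPKM, SD, n = 2). S1pr1 (125 ± 16.3), Ccr8 (114 ± 25.8) and Ccr7 (110.4 ± 19.5) were next in order. The range of S1pr1 overlapped that of Ccr8, and the range of Ccr8 that of Ccr7. In KO spleen Cxcr3 and S1pr1 also led, at 276 ± 7.77 and 206 ± 23.3 RPKM (SD, n = 2), followed by Ccr7 at 123 ± 2.35 and Ccr4 at 103 ± 4.14. In WT tumor Ccr8 led at 767 ± 58.7 RPKM (SD, n = 2) with 43.3% of the summed RPKM of the 9, ahead of Cxcr6 (354 ± 35.5) and Cxcr3 (299 ± 101), whose ranges overlapped. In KO tumor Cxcr6 had the highest mean, 385 ± 386 RPKM (SD, n = 2), with a range that overlapped that of Ccr7 (202 ± 48.3). Ccr8 there stood at 59.0 ± 16.6 RPKM with 6.81% of the sum. Ccr10 was lowest in both tumor groups and in WT spleen, where its range overlapped that of Cxcr4, and Ccr2 was lowest in KO spleen (8.92 ± 2.16 RPKM).

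**Figure D2:**
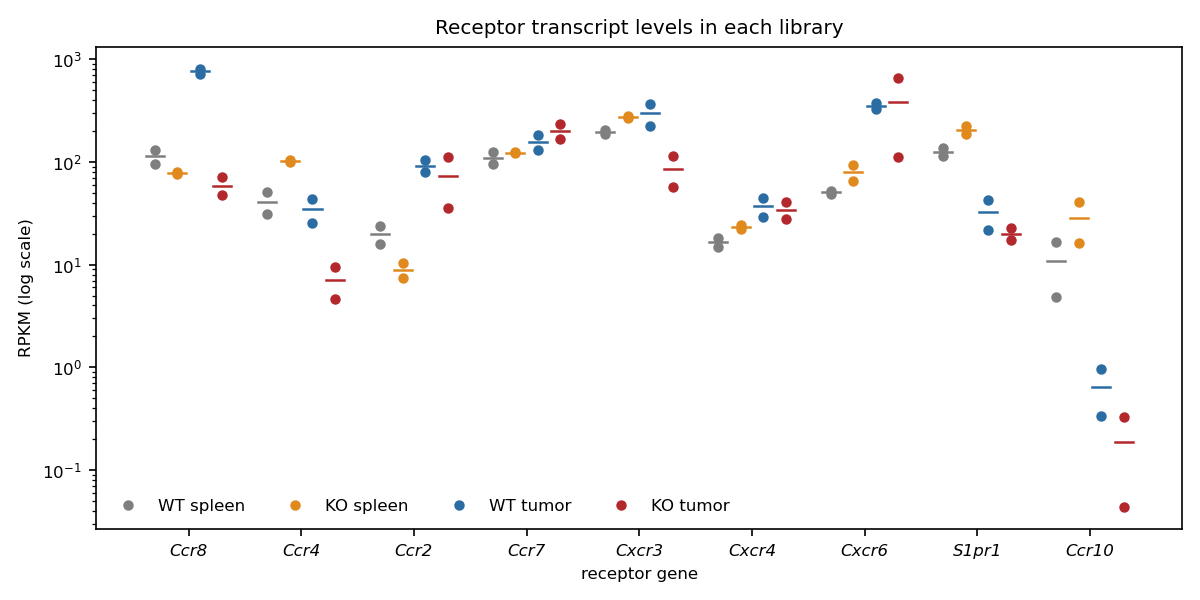
RPKM of the 9 receptor genes (log axis) in each library, with 1 point per library, a short line at the mean of 2 libraries and color for the group. Ccr8 in WT tumor stands apart at 725 and 808 RPKM, S1pr1 and Ccr10 are lower in every tumor library than in every spleen library, and the KO tumor points of Cxcr6 lie far apart at 111 and 658 RPKM.

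Tumor and spleen were compared within each genotype with edgeR's quasi-likelihood test on 4 libraries. A gene was called when its Benjamini-Hochberg adjusted p was under 0.05 and its log2 fold change was beyond 1 in either direction. In WT, 3 of the 9 receptors were called higher in tumor, against 4.1% of the 16427 genes tested, and 2 were called lower, against 1.87%. Ranges did not overlap for 6 receptors higher in WT tumor (25.1% of genes) and 2 lower (27%). In KO, edgeR called 0 of 9 higher, against 0.803% of 16933 genes, and 2 lower, against 0.543%, with 7 receptors at an unadjusted p under 0.05 in either direction (31% of genes). DESeq2's Wald test on the same KO libraries called 2 higher (12.6% of genes) and 4 lower (6.32%). Ranges did not overlap for 4 receptors higher in KO tumor (30.6% of genes) and 5 lower (32.9%).

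Genotypes were compared within each tissue, as KO over WT. In tumor edgeR called 0 of 9 receptors (0% of 15935 genes), while 3 had an unadjusted p under 0.05 (9.87% of genes) and DESeq2 called the 3 lower in KO, Ccr8, Ccr4 and Cxcr3 (1.13% of genes). These and Ccr10 were lower in both KO than in both WT tumor libraries, 4 of 9 against 19.4% of genes, and 0 were higher without overlap (18% of genes). For Ccr10 this rested on 18 counts in KO tumor library 1 against 16 in WT tumor library 1, at 0.331 and 0.333 RPKM, close to a tie. In spleen edgeR called 0 of 9 (0% of 16583 genes), with 2 at an unadjusted p under 0.05, Ccr4 and Ccr2 (2.95% of genes), and DESeq2 called 0 (0.441% of genes). Ranges did not overlap for 5 receptors higher in KO spleen (16.4% of genes) and 2 lower (15.7%). WT spleen library 2 stood apart from all other libraries in composition. Its most abundant genes held 10.6% of counts, against at most 6.85% elsewhere, and its mitochondrial share was 2.49%, against at most 1.73%.

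A fit over all 8 libraries with terms for tissue and genotype called 0 of 9 receptors for a shared genotype effect in edgeR (0% of 17870 genes), with 1, Ccr8, at an unadjusted p under 0.05 (6.57% of genes), and DESeq2 called Ccr8 lower (0.234% of genes). Ccr8 was also the only one of the 9 lower in all 4 KO libraries than in all 4 WT libraries, which held for 0.963% of genes. For the difference between tissues in the genotype effect, the interaction, edgeR called 0 of 9 (0% of genes) with 5 at an unadjusted p under 0.05 (7.83% of genes), and DESeq2 called 3 lower, Ccr8, Ccr4 and Cxcr3 (0.612% of genes). Each library serves in more than 1 of these comparisons, so they are not independent of each other.

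Each comparison of 2 groups was also fitted with 1 library left out. The group with a lone library is then assumed to vary like the other group, whose 2 libraries supply the whole spread. The number of calls differed widely between these fits. In KO tumor against KO spleen edgeR called 3549 of 17976 genes without KO tumor library 1 and 4958 of 18484 without library 2, when only the KO spleen pair gave the spread, and 0 genes without either KO spleen library. In KO against WT spleen it called 3972 of 18008 genes without WT spleen library 1 and at most 47 without any other. Calls gained when a library is left out are given below as changes and not as support for a difference, and the ranges of adjusted p do not include these fits.

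**Figure D3:**
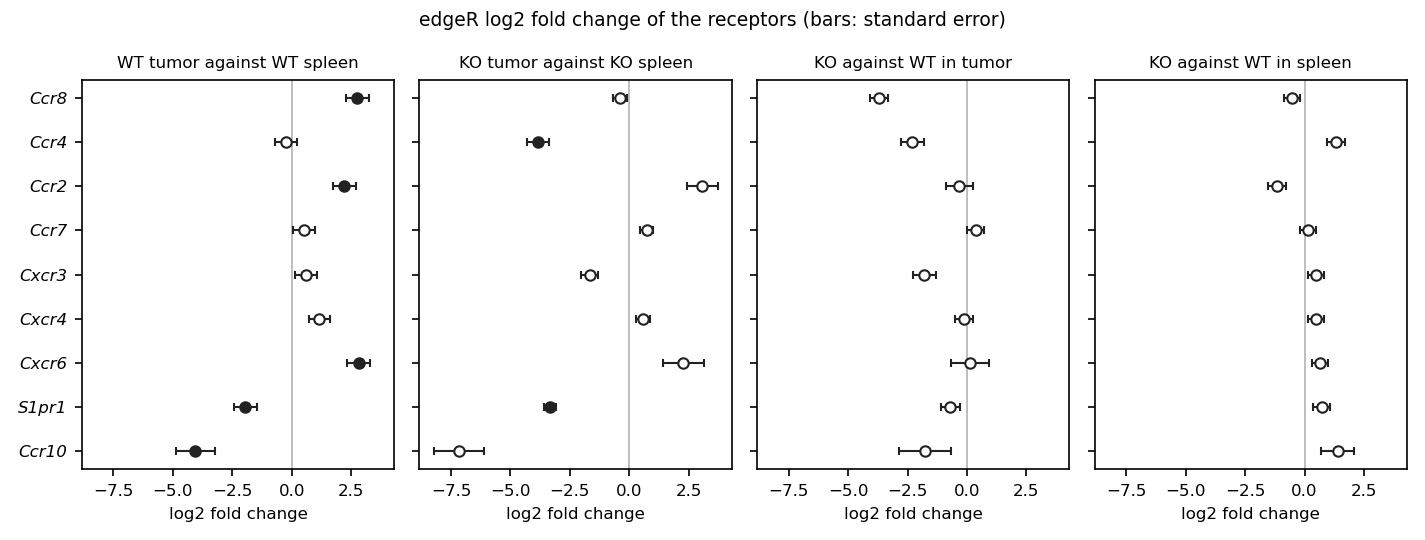
edgeR log2 fold change of each receptor in 4 comparisons, each fitted on 4 libraries, with bars for the standard error. Filled points were called, which was so for 5 receptors in WT tumor against WT spleen, 2 in KO tumor against KO spleen and 0 in either comparison of genotypes.

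Ccr8 (chr9:120092114-120094906, plus strand, GRCm38) encodes the receptor of Ccl1 and, in the mouse, of Ccl8, and marks highly activated Treg cells in tumors. It stood at 725 and 808 RPKM in WT tumor, 132 and 95.3 RPKM in WT spleen, 70.7 and 47.3 RPKM in KO tumor and 80.4 and 77.0 RPKM in KO spleen. The WT tumor libraries were above all others, and the KO tumor libraries lay below all 4 spleen libraries. In WT, Ccr8 rose from spleen to tumor by 2.76 on the log2 scale (standard error 0.48, adjusted p = 0.00917 from edgeR), 6.77-fold, and was called with each library left out in turn (adjusted p 0.0248 to 0.0355). In KO the value was -0.39 (standard error 0.28, adjusted p = 0.400 from edgeR). KO against WT in tumor gave -3.70 (standard error 0.37, adjusted p = 0.177 from edgeR), 13.0-fold lower in KO and rank 4 of 15935 genes by p, and DESeq2 called it (adjusted p = 1.93e-12, range 1.83e-15 to 0.609 over 11 alternatives). edgeR called it on all 8 libraries (adjusted p = 0.0203) and with a replicate block (adjusted p = 0.00652), though replicate numbers were not shown to pair libraries. In spleen the value was -0.53 (standard error 0.34, adjusted p = 0.878 from edgeR), and over both tissues it was -2.11 (standard error 0.66, adjusted p = 0.699 from edgeR and 0.0299 from DESeq2, range 2.35e-06 to 0.723 over 9 alternatives). The interaction was -3.17 (standard error 0.49, adjusted p = 0.177 from edgeR and 8.18e-05 from DESeq2, range 4.00e-05 to 0.859 over 9 alternatives).

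Ccr8 was also set against Treg and T cell transcripts of the same library. Per RPKM of Foxp3 it stood at 27.6 and 63.1 in KO tumor and 114 and 53.3 in WT tumor, so that the genotypes overlapped, and at 5.45 to 7.55 in the 4 spleen libraries. Per 100 RPKM of Cd3d, Cd3e and Cd3g together it stood at 27.1 and 4.60 in KO tumor and 75.2 and 66.6 in WT tumor, with no overlap. Per 100 RPKM of the 7 Treg identity genes it stood at 20.9 and 7.52 in KO tumor and 27.1 and 21.0 in WT tumor, close but without overlap. KO was lower without overlap for 1.78% of the 15935 genes in the ratio to CD3 and for 0.307% in that to Treg identity genes. Foxp3 had only 322 and 80 counts in KO tumor, and KO against WT there gave -2.71 (standard error 0.76, adjusted p = 0.339 from edgeR). With libraries scaled to CD3 transcripts in place of TMM, Ccr8 in KO against WT tumor gave -2.16 (adjusted p = 0.609 from edgeR, range 1.83e-15 to 0.609 over 11 alternatives), and KO tumor against KO spleen turned to 1.23 (adjusted p = 0.545, range 0.324 to 0.688 over 12 alternatives). That scaling moved the median over all genes to 1.37 and 1.43 in these comparisons, so a turn of sign under it is not particular to a receptor.

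Ccr4 (chr9:114490316-114504916, minus strand) encodes the receptor of Ccl17 and Ccl22, used in homing to skin. It stood at 25.6 and 43.3 RPKM in WT tumor, 51.3 and 31.0 RPKM in WT spleen, 9.46 and 4.62 RPKM in KO tumor and 106 and 99.9 RPKM in KO spleen. The KO spleen libraries were the highest and the KO tumor libraries the lowest, while the WT groups overlapped. Ccr4 fell in KO tumor against KO spleen by 3.84 on the log2 scale (standard error 0.45, adjusted p = 0.0473 from edgeR), 14.3-fold. The call was lost without KO spleen library 1 (-3.79, adjusted p = 0.130) or KO spleen library 2 (-3.86, adjusted p = 0.113), and with scaling to CD3 transcripts (-2.12, adjusted p = 0.376 from edgeR, range 2.03e-12 to 0.376 over 12 alternatives), and the value was -4.48 without KO tumor library 1. In WT the tissues gave -0.25 (standard error 0.47, adjusted p = 0.816 from edgeR), which turned to 0.17 without WT spleen library 1 and 0.09 without WT tumor library 1. KO against WT gave -2.30 in tumor (standard error 0.49, adjusted p = 0.259 from edgeR and 0.00416 from DESeq2, range 0.000665 to 0.720 over 11 alternatives), and -2.90 without KO tumor library 1. In spleen it gave 1.32 (standard error 0.38, adjusted p = 0.878 from edgeR), and only without WT spleen library 1, when WT spleen has a lone library, did edgeR call it (1.79, adjusted p = 0.00110). The interaction was -3.61 (standard error 0.65, adjusted p = 0.177 from edgeR and 0.000365 from DESeq2, range 1.86e-06 to 0.787 over 9 alternatives). It was -4.23 without KO tumor library 1.

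Per RPKM of Foxp3, Ccr4 stood at 9.80 and 7.07 in KO spleen against 2.94 and 2.13 in WT spleen, and at 3.69 and 6.16 in KO tumor against 4.02 and 2.86 in WT tumor. Per 100 RPKM of the 3 CD3 genes it stood at 8.61 and 9.06 in KO spleen, 4.01 and 1.73 in WT spleen, 3.62 and 0.449 in KO tumor and 2.66 and 3.57 in WT tumor. On both ratios the genotypes were apart in spleen and overlapped in tumor.

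Cxcr3 (chrX:101731535-101734269, minus strand) encodes a receptor of the interferon-induced ligands Cxcl9, Cxcl10 and Cxcl11 and marks type 1 responses. It stood at 227 and 370.1 RPKM in WT tumor, 206 and 189 RPKM in WT spleen, 57.7 and 115 RPKM in KO tumor and 270.5 and 281 RPKM in KO spleen. The KO tumor libraries were below all others, and in spleen the KO libraries were above the WT libraries. KO against WT gave -1.79 on the log2 scale in tumor (standard error 0.48, adjusted p = 0.317 from edgeR and 0.0381 from DESeq2, range 0.00481 to 0.693 over 11 alternatives) and 0.48 in spleen (standard error 0.33, adjusted p = 0.878 from edgeR). Tumor against spleen gave 0.60 in WT (standard error 0.46, adjusted p = 0.511 from edgeR). In KO it gave -1.67 (standard error 0.37, adjusted p = 0.0699 from edgeR and 0.00435 from DESeq2, range 0.00435 to 0.777 over 12 alternatives). With a lone tumor library edgeR called it without KO tumor library 1 (-1.27, adjusted p = 0.00239) or KO tumor library 2 (-2.21, adjusted p = 0.000901), but not without KO spleen library 1 (-1.67, adjusted p = 0.298) or KO spleen library 2 (-1.60, adjusted p = 0.304). The interaction was -2.28 (standard error 0.59, adjusted p = 0.329 from edgeR and 0.0342 from DESeq2, range 0.00837 to 0.869 over 9 alternatives).

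Per RPKM of Foxp3, Cxcr3 stood at 22.5 and 153 in KO tumor and 35.6 and 24.4 in WT tumor, and per 100 RPKM of the CD3 genes at 22.1 and 11.2 and 23.5 and 30.5. Per 100 RPKM of the Treg identity genes it stood at 17.0 and 18.2 in KO tumor and 8.47 and 9.63 in WT tumor. KO tumor was thus lower per CD3 transcript, with KO tumor library 1 close to WT tumor library 1, higher per Treg identity transcript and overlapped with WT tumor per Foxp3 transcript. With libraries scaled to CD3 transcripts KO against WT tumor gave -0.70 (adjusted p = 0.693 from edgeR, range 0.00481 to 0.693 over 11 alternatives). In tumor, 2 of the 9 receptors were lower in KO per CD3 transcript without overlap (1.78% of genes), 1 was higher (36.1%) and 6 overlapped. Per Foxp3 transcript 0 were lower (0.289% of genes), 4 were higher (93.3%) and 5 overlapped. Per Treg identity transcript 1 was lower (0.307% of genes), 6 were higher (95.4%) and 2 overlapped. In spleen 7 were higher in KO on each of these ratios, against 36% of genes for CD3, 40.8% for Foxp3 and 52.7% for Treg identity. In spleen 1 was lower for CD3 (6.16% of genes), 1 for Foxp3 (3.6%) and 0 for Treg identity (3.6%).

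Ccr8, Ccr4 and Cxcr3 were the receptors that DESeq2 called lower in KO tumor, and their promoters are shown with letters known from sites of Blimp1 (GAAAG and the longer AGNGAAAG, which holds it), KLF factors (CACCC) and FOXO factors (TGTTTAC). RefSeq windows of 300 bases on GRCm38.p6 were matched to 6 of the 9 receptors, Ccr8, Ccr4, Ccr2, Cxcr3, Cxcr4 and Cxcr6, and not to Ccr7, S1pr1 and Ccr10. Of 32851 such windows, 57.3% held GAAAG, 8.63% AGNGAAAG, 57.5% CACCC and 3.65% TGTTTAC on either strand. Matches on either strand are in capitals, 5′ to 3′ along the gene, for Ccr8 at chr9:120091883-120092182 (plus strand), Ccr4 at chr9:114496495-114496794 (minus strand) and Cxcr3 at chrX:101734098-101734397 (minus strand).
Ccr8: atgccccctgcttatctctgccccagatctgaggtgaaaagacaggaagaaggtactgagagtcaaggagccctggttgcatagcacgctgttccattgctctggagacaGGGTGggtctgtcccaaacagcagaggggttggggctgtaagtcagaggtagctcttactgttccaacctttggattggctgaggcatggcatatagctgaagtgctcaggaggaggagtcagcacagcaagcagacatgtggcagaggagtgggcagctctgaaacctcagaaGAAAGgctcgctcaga
Ccr4: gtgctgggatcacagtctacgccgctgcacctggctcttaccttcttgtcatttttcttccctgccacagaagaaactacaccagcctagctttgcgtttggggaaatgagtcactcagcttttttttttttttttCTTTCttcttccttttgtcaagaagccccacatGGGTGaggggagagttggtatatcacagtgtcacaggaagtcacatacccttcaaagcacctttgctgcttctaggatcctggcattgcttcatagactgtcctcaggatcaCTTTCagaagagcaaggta
Cxcr3: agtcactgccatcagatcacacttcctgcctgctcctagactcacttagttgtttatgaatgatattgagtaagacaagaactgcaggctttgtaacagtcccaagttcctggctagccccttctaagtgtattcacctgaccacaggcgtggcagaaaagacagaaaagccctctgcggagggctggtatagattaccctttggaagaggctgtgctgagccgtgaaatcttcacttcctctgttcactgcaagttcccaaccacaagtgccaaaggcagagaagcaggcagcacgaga
The Ccr8 window held GAAAG 1 time and CACCC 1 time, the Ccr4 window held GAAAG 2 times and CACCC 1 time, and the Cxcr3 window held 0 matches. None of the 6 windows held AGNGAAAG or TGTTTAC. The Ccr4 window lies wholly inside the span of the counted gene, whose 5′ end on the minus strand is at 114504916. It therefore marks a start within that gene. A match is only a description of these letters.

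Ccr2 (chr9:124101950-124113557, plus strand) encodes the receptor of Ccl2, Ccl7 and Ccl12 and is used by inflammatory monocytes as well as by activated T cells. It stood at 79.5 and 104 RPKM in WT tumor, 23.8 and 15.97 RPKM in WT spleen, 111 and 36.0 RPKM in KO tumor and 10.4 and 7.39 RPKM in KO spleen. All 4 tumor libraries were above all 4 spleen libraries, and KO tumor library 1, the highest, also held the most monocyte and macrophage transcript. WT tumor library 2 held more Ccr2 than WT tumor library 1 and less of that transcript (393 against 2352 RPKM). In WT, Ccr2 rose by 2.21 on the log2 scale (standard error 0.48, adjusted p = 0.0249 from edgeR), 4.62-fold. The call was lost with edgeR on all 8 libraries (2.20, adjusted p = 0.0619, range 0.000136 to 0.0619 over 11 alternatives) and without WT spleen library 2 (1.99, adjusted p = 0.0612), WT tumor library 1 (2.40, adjusted p = 0.117) or WT tumor library 2 (2.04, adjusted p = 0.185). In KO the value was 3.07 (standard error 0.64, adjusted p = 0.0660 from edgeR and 1.89e-05 from DESeq2, range 1.42e-06 to 0.0696 over 12 alternatives). With a lone tumor library edgeR called it without KO tumor library 1 (2.01, adjusted p = 0.00166) or KO tumor library 2 (3.68, adjusted p = 0.000514), but not without KO spleen library 1 (3.34, adjusted p = 0.215) or KO spleen library 2 (2.86, adjusted p = 0.233). KO against WT gave -0.33 in tumor (standard error 0.58, adjusted p = 0.946 from edgeR), where the groups overlapped and the sign turned with scaling to CD3 and without KO tumor library 2 (0.25). In spleen it gave -1.16 (standard error 0.38, adjusted p = 0.878 from edgeR), where both KO libraries were lower.

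Cxcr6 (chr9:123806475-123811760, plus strand) encodes the receptor of Cxcl16 and is typical of T cells that reside in tissues, CD8 T cells included. It stood at 379 and 329 RPKM in WT tumor, 48.7 and 52.4 RPKM in WT spleen, 111 and 658 RPKM in KO tumor and 93.3 and 65.2 RPKM in KO spleen. Every tumor library was above every spleen library, and KO tumor library 2 was the highest. In WT, Cxcr6 rose by 2.81 on the log2 scale (standard error 0.47, adjusted p = 0.00773 from edgeR), 7.01-fold, and was called with each library left out in turn (adjusted p 0.0167 to 0.0470). The call was lost with edgeR on all 8 libraries (2.81, adjusted p = 0.0676, range 5.70e-08 to 0.0676 over 11 alternatives). In KO the value was 2.27 (standard error 0.86, adjusted p = 0.158 from edgeR and 0.0208 from DESeq2, range 0.00446 to 0.298 over 12 alternatives). With a lone tumor library edgeR called it without KO tumor library 1 (3.05, adjusted p = 0.000408), but not without KO tumor library 2 (0.54, adjusted p = 0.142), KO spleen library 1 (2.60, adjusted p = 0.381) or KO spleen library 2 (2.09, adjusted p = 0.481). KO against WT gave 0.12 in tumor (standard error 0.80, adjusted p = 0.986 from edgeR), where both WT libraries lay between the KO libraries and leaving out KO tumor library 2 gave -1.69, and 0.64 in spleen (standard error 0.35, adjusted p = 0.878), where KO was higher without overlap. Fyco1 overlaps Cxcr6 on the other strand, and the exons of the 2 genes share 0 bases.

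The 2 CD8 genes, led by Cd8b1, summed to 187 and 1013 RPKM in KO tumor, 71.1 and 28.7 RPKM in WT tumor, 14.3 and 18.3 RPKM in WT spleen and 8.95 and 10.9 RPKM in KO spleen, with neither at 0. Both this list and Cxcr6 were highest in KO tumor library 2, and their part in the result for Cxcr6 was not tested.

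Cxcr4 (chr1:128588199-128592293, minus strand) encodes the receptor of Cxcl12, which holds cells in bone marrow and other tissues. It stood at 28.9 and 45.1 RPKM in WT tumor, 14.9 and 18.1 RPKM in WT spleen, 40.6 and 27.6 RPKM in KO tumor and 24.2 and 22.1 RPKM in KO spleen. Tumor libraries were above spleen libraries in both genotypes, the genotypes overlapped in tumor, and KO was above WT in spleen. edgeR called none of the differences. Tumor against spleen gave 1.16 in WT (standard error 0.45, adjusted p = 0.176 from edgeR) and 0.58 in KO (standard error 0.28, adjusted p = 0.237). Between genotypes the values were -0.12 in tumor (standard error 0.37, adjusted p = 0.971 from edgeR) and 0.48 in spleen (standard error 0.33, adjusted p = 0.878). The tumor value turned to 0.11 without KO tumor library 2 and 0.22 without WT tumor library 2, and scaling to CD3 also turned its sign.

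Ccr7 (chr11:99144196-99155077, minus strand) encodes the receptor of Ccl19 and Ccl21, which brings T cells and mature dendritic cells into lymphoid tissue. It stood at 183 and 131 RPKM in WT tumor, 96.6 and 124 RPKM in WT spleen, 236 and 168 RPKM in KO tumor and 122 and 125 RPKM in KO spleen. The tumor libraries were above the spleen libraries in both genotypes, and the genotypes overlapped in both tissues. edgeR called none of the differences, with 0.51 in WT tumor against spleen (standard error 0.45, adjusted p = 0.575) and 0.73 in KO (standard error 0.27, adjusted p = 0.154). Between genotypes the values were 0.36 in tumor (standard error 0.35, adjusted p = 0.862 from edgeR) and 0.15 in spleen (standard error 0.34, adjusted p = 0.915).

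The 8 dendritic cell genes, led by H2-Ab1, summed to 2351 and 389 RPKM in KO tumor, 342 and 74.8 RPKM in WT tumor, 15.2 and 154 RPKM in WT spleen and 61.9 and 94.3 RPKM in KO spleen, with Clec9a at 0 in KO spleen library 1, WT spleen library 1 and WT tumor library 2. KO tumor library 1 was highest both for this sum and for Ccr7. H2-Ab1, which macrophages also express, made up 2292 RPKM of the sum there. H2-Ab1, Flt3, Clec9a, Cd209a, Itgax and Batf3 were each highest in that library, and Zbtb46 and Siglech were not. The part of those cells was not tested. The 6 genes of naive or central T cells, led by Tcf7, summed to 39.1 and 52.4 RPKM in KO tumor, 16.9 and 19.0 RPKM in WT tumor, 126 and 125 RPKM in WT spleen and 166 and 139 RPKM in KO spleen, with none at 0. In WT edgeR called 2 of them lower in tumor (1.87% of genes) and 0 higher, with 4 at an unadjusted p under 0.05 (20.5% of genes) and DESeq2 calling 3 lower (3.24% of genes) and 0 higher. The edgeR calls were Tcf7 at -4.07 (adjusted p = 0.00305) and Bach2 at -3.60 (adjusted p = 0.00924). In KO 3 of the 6 were above 0 on the log2 scale. edgeR called Tcf7 lower there (-2.47, adjusted p = 0.0374, a call that 0.543% of genes shared) and 0 higher, with 3 at an unadjusted p under 0.05 (31% of genes). DESeq2 called 1 higher (12.6% of genes) and 2 lower (6.32%).

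S1pr1 (chr3:115710433-115715072, minus strand) encodes the receptor that takes lymphocytes out of lymphoid organs into lymph and blood, and it was called lower in tumor in both genotypes. It stood at 22.0 and 42.7 RPKM in WT tumor, 137 and 114 RPKM in WT spleen, 17.6 and 22.6 RPKM in KO tumor and 189 and 222 RPKM in KO spleen. All 4 tumor libraries were below all 4 spleen libraries, KO was above WT in spleen, and the genotypes overlapped in tumor. S1pr1 fell by 1.95 on the log2 scale in WT (standard error 0.49, adjusted p = 0.0450 from edgeR), 3.87-fold, and the call was lost without WT spleen library 1 (-1.80, adjusted p = 0.0563), WT spleen library 2 (-2.04, adjusted p = 0.0842), WT tumor library 1 (-1.53, adjusted p = 0.698) or WT tumor library 2 (-2.47, adjusted p = 0.167). In KO it fell by 3.35 (standard error 0.26, adjusted p = 0.0366 from edgeR), 10.2-fold, and the call was lost without KO spleen library 1 (-3.43, adjusted p = 0.130) or KO spleen library 2 (-3.19, adjusted p = 0.113). With libraries scaled to CD3 transcripts edgeR gave -1.55 in WT (adjusted p = 0.169, range 0.000496 to 0.169 over 11 alternatives) and -2.00 in KO (adjusted p = 0.411, range 9.98e-18 to 0.411 over 12 alternatives). KO against WT gave 0.71 in spleen (standard error 0.35, adjusted p = 0.878 from edgeR) and -0.69 in tumor (standard error 0.41, adjusted p = 0.690), where scaling to CD3 turned the sign. The interaction was -1.41 (standard error 0.55, adjusted p = 0.572 from edgeR).

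Per RPKM of Foxp3, S1pr1 stood at 17.6 and 15.7 in KO spleen against 7.83 and 7.80 in WT spleen, and at 6.85 and 30.1 in KO tumor against 3.45 and 2.82 in WT tumor, with no overlap of genotypes in either tissue. Per 100 RPKM of the CD3 genes it stood at 15.4 and 20.2 in KO spleen, 10.7 and 6.34 in WT spleen, 6.72 and 2.20 in KO tumor and 2.28 and 3.52 in WT tumor, where the genotypes overlapped. Per 100 RPKM of Treg identity genes it stood at 5.18 and 3.59 in KO tumor and 0.821 and 1.11 in WT tumor. KO was higher without overlap there for 93.3% of genes in the ratio to Foxp3 and 95.4% in that to Treg identity genes. Endothelial cells also carry S1pr1, and their 6 genes, led by Kdr, summed to 2.68 and 0.475 RPKM in KO tumor, 1.57 and 0.118 RPKM in WT tumor, 0.0854 and 0.276 RPKM in WT spleen and 0.213 and 0.287 RPKM in KO spleen, with Emcn at 0 in 6 libraries, Cldn5 in 5 and Plvap in 3.

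Ccr10 (chr11:101172997-101175443, minus strand) encodes a receptor of Ccl27 and Ccl28 in skin and mucosa that plasma cells also use. It stood at 0.333 and 0.958 RPKM in WT tumor, 4.89 and 16.7 RPKM in WT spleen, 0.331 and 0.0433 RPKM in KO tumor and 16.1 and 40.6 RPKM in KO spleen. All tumor libraries were below all spleen libraries, with 16 and 49 counts in WT tumor and 18 and 2 in KO tumor. In WT, Ccr10 fell by 4.06 on the log2 scale (standard error 0.82, adjusted p = 0.0188 from edgeR), 16.7-fold. The call was lost with edgeR on all 8 libraries (-4.05, adjusted p = 0.0563, range 1.27e-06 to 0.0563 over 11 alternatives) and without WT spleen library 2 (-2.87, adjusted p = 0.147). It was kept, at a changed size, without WT spleen library 1 (-4.67, adjusted p = 0.0299), WT tumor library 1 (-3.47, adjusted p = 0.0342) or WT tumor library 2 (-4.97, adjusted p = 0.000877), all from edgeR. In KO the value was -7.17 (standard error 1.06, adjusted p = 0.0551 from edgeR and 6.36e-15 from DESeq2, range 6.36e-15 to 0.0697 over 12 alternatives). With a lone tumor library edgeR called it without KO tumor library 1 (-9.30, adjusted p = 0.00192) or KO tumor library 2 (-6.37, adjusted p = 0.00447), but not without KO spleen library 1 (-7.68, adjusted p = 0.130) or KO spleen library 2 (-6.34, adjusted p = 0.114). The genotypes differed by 1.39 in spleen (standard error 0.68, adjusted p = 0.878 from edgeR), with overlap, and -1.76 in tumor (standard error 1.10, adjusted p = 0.708), where scaling to CD3 turned the sign. With 1 library left out the spleen value ran from 0.59 without KO spleen library 2 to 2.54 without WT spleen library 2. The tumor value ran from -3.82 without KO tumor library 1 to -0.82 without WT tumor library 2. The interaction was -3.14 (standard error 1.30, adjusted p = 0.614 from edgeR). Leaving out 1 library gave it values from -5.25 (without KO tumor library 1) to -2.21 (without WT tumor library 2). Cntnap1 overlaps Ccr10 on the other strand, with 0 exon bases in common.

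The 5 plasma cell genes, led by Jchain, summed to 52.9 and 13.0 RPKM in KO tumor, 13.3 and 2.90 RPKM in WT tumor, 1.94 and 14.4 RPKM in WT spleen and 6.46 and 20.8 RPKM in KO spleen, with Tnfrsf17 at 0 counts in 7 of 8 libraries. Within spleen their sum was higher in library 2 of each genotype, as Ccr10 was, but not every gene followed. In KO spleen Sdc1 (1.63 and 0.964 RPKM) and Derl3 (1.69 and 1.37 RPKM) were lower in library 2. Jchain (2.59 and 15.3 RPKM) and Mzb1 (0.546 and 2.995 RPKM) were higher there. In WT spleen Sdc1, Jchain, Mzb1 and Derl3 were each higher in library 2. The part of plasma cells in the spread of Ccr10 was not tested.

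Genes with the most similar pattern were found by the root mean square difference of centered log2 CPM over the 8 libraries, among 12654 genes with a mean of at least 50 counts. For Ccr4 these were Itgae (0.21), B4galnt4 (0.27) and Itga7 (0.32). Itgae, which encodes the CD103 integrin chain, stood at means of 71.4 RPKM in KO spleen, 35.2 in WT spleen, 27.4 in WT tumor and 4.80 in KO tumor, the same order as Ccr4. For Ccr8 they were Fam132a (0.52), Msrb3 (0.52) and Gm5541 (0.57), all highest in WT tumor, and for Cxcr3 Sytl1 (0.21), Gpm6b (0.22) and Slamf1 (0.22). Nearest to S1pr1 were Fgf2 (0.22), Il16 (0.26) and Nxpe3 (0.30), to Ccr7 Lamtor3 (0.11), Rnf13 (0.13) and Irak1bp1 (0.13) and to Cxcr4 Lgals3bp (0.12), Gm7832 (0.19) and Sqstm1 (0.20). Nearest to Cxcr6 were Mt3 (0.28), Gas2 (0.37) and Mlf1 (0.41), and to Ccr2 Ifi44 (0.41), Loxl3 (0.43) and Ppp1r15a (0.44). The distances were largest for Ccr10, with Prg4 (0.98), St8sia6 (0.99) and Sh3gl3 (1.10).

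Counts for the gene lists that follow are to be read against all genes tested. In WT tumor against spleen edgeR called 4.1% of genes higher and 1.87% lower, 20.5% had an unadjusted p under 0.05, and DESeq2 called 6.25% higher and 3.24% lower. In KO these shares were 0.803%, 0.543%, 31%, 12.6% and 6.32%. In KO against WT edgeR called 0 genes in either tissue, 9.87% in tumor and 2.95% in spleen had an unadjusted p under 0.05. DESeq2 called 3.31% higher and 1.13% lower in tumor, and 0.394% higher and 0.047% lower in spleen.

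Of the 16 genes of ligands of these receptors 11 were tested in WT, and edgeR called 6 higher in tumor (4.1% of genes) and 0 lower, with 9 at an unadjusted p under 0.05 and DESeq2 calling 8 higher and 0 lower. Ccl8, a ligand of Ccr8, stood at 467 and 92.0 RPKM in WT tumor, 0.176 and 0.907 RPKM in WT spleen, 855 and 371 RPKM in KO tumor and 0.588 and 1.49 RPKM in KO spleen. The Ccr2 ligands Ccl2, Ccl7 and Ccl12 stood at 350.0, 558 and 254 RPKM in WT tumor library 1 and at 32.8, 67.6 and 41.1 RPKM in WT tumor library 2, and each had 0 counts in both WT spleen libraries. For each of these 4 ligands WT tumor library 2 was the lowest tumor library, as for the monocyte and macrophage genes, whose part was not tested. The other calls in WT were Ccl22, a ligand of Ccr4, and Cxcl16, the ligand of Cxcr6, at 3.80 (adjusted p = 0.0134 from edgeR). In KO edgeR called 6 of 12 higher, Ccl8, Ccl17, Ccl22, Ccl2, Ccl7 and Ccl12, and 0 lower, with 11 at an unadjusted p under 0.05 and DESeq2 calling 11 higher and 0 lower. The Ccr7 ligands Ccl19 and Ccl21a and the Ccr10 ligand Ccl28 had 0 counts in all 8 libraries. For genotype edgeR called 0 in either tissue, with 1 in each at an unadjusted p under 0.05, and DESeq2 called 1 higher in KO tumor, Ccl17, and 0 in spleen.

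Of 17 other chemokine receptor genes 11 were tested in WT, and edgeR called 5 higher and 2 lower in tumor, as many as DESeq2, with 8 at an unadjusted p under 0.05. Ccrl2, which presents chemerin, stood at 157 and 145 RPKM in WT tumor, 16.3 and 14.9 RPKM in WT spleen, 374 and 91.8 RPKM in KO tumor and 10.9 and 11.2 RPKM in KO spleen and rose in WT by 3.28 (adjusted p = 0.00408 from edgeR). Also called higher by edgeR were Ccr1 at 5.21 (adjusted p = 0.00283), Cx3cr1 at 4.68 (adjusted p = 0.00268) and Xcr1 at 2.42 (adjusted p = 0.0314). Cxcr5, which leads T cells into B cell follicles, stood at 1.03 and 3.20 RPKM in WT tumor, 40.3 and 18.6 RPKM in WT spleen, 3.73 and 2.77 RPKM in KO tumor and 55.5 and 46.8 RPKM in KO spleen and fell in WT by 3.79 (adjusted p = 0.00889 from edgeR), and Ccr3 fell by 2.38 (adjusted p = 0.0335). In KO edgeR called 3 of 13 higher, Cx3cr1 and Xcr1 among them, and 1 lower, Cxcr5, at -3.95 (adjusted p = 0.0353), while 11 of 13 had an unadjusted p under 0.05 in either direction and DESeq2 called 8 higher and 3 lower. Ccr6 stood at 175 and 138 RPKM in KO spleen and 46.5 and 40.6 RPKM in WT spleen, a difference of 1.84 (adjusted p = 0.634 from edgeR). For genotype edgeR called 0 in either tissue, with 2 in tumor and 3 in spleen at an unadjusted p under 0.05, and DESeq2 called Ccr3 lower in KO tumor and Ccr6 higher in KO spleen.

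All 12 genes that control homing and egress were tested in WT, and edgeR called 1 higher and 3 lower in tumor, as many as DESeq2, with 6 at an unadjusted p under 0.05. Klf2, a factor that drives S1pr1, stood at 2.33 and 4.57 RPKM in WT tumor, 55.6 and 150.3 RPKM in WT spleen, 48.4 and 15.2 RPKM in KO tumor and 83.9 and 106 RPKM in KO spleen. It fell in WT by 4.91 on the log2 scale (adjusted p = 0.00307 from edgeR), as did Klf3 (-3.54, adjusted p = 0.00275) and Foxo1 (-1.86, adjusted p = 0.0405), while P2ry10, a lysophospholipid receptor, rose (2.43, adjusted p = 0.0207). Both KO tumor libraries held more Klf2 than both WT tumor libraries, while S1pr1 overlapped between them. Selplg and Il7r, with Itgb7 the most abundant of the list, stood at 219 and 305 and at 42.5 and 156 RPKM in WT tumor. In KO edgeR called 1 lower, Itgb7, an integrin chain of gut homing, which stood at 155 and 146 RPKM in KO tumor against 729 and 594 RPKM in KO spleen (-2.12, adjusted p = 0.0485), and 0 higher, with 5 in either direction at an unadjusted p under 0.05 (31% of genes) and DESeq2 calling 0 higher and 2 lower (6.32% of genes). For genotype edgeR called 0 in either tissue, with 5 in tumor and 1 in spleen at an unadjusted p under 0.05, and DESeq2 called Klf2 and Klf3 higher and Itgb7 lower in KO tumor and 0 in spleen.

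Of 12 other genes of S1P receptors and S1P metabolism 10 were tested in WT, and edgeR called 1 lower and 0 higher, as DESeq2 did, with 3 in either direction at an unadjusted p under 0.05. That gene was Sgpp1, an S1P phosphatase, which stood at 8.40 and 6.90 RPKM in WT tumor, 35.9 and 20.1 RPKM in WT spleen, 43.5 and 45.0 RPKM in KO tumor and 46.3 and 43.1 RPKM in KO spleen (-1.87 in WT, adjusted p = 0.0422 from edgeR). Sgpl1 and S1pr4, with Sgpp1 the most abundant of the list, stood at 43.6 and 33.6 and at 11.3 and 23.6 RPKM in WT tumor. In KO edgeR called 1 of 11 higher, S1pr5, a receptor of NK cells and terminal effector cells, which stood at 1.33 and 0.942 RPKM in KO tumor and at most 0.0431 RPKM in the other 6 libraries, and 0 lower, with 5 in either direction at an unadjusted p under 0.05 and DESeq2 calling 3 higher and 1 lower. The 6 NK cell genes, led by Tyrobp, which myeloid cells share, summed to 1126 and 219 RPKM in KO tumor, 250.1 and 60.7 RPKM in WT tumor, 47.4 and 426 RPKM in WT spleen and 37.5 and 75.5 RPKM in KO spleen, with Ncr1, Klra8 and Klra4 at 0 in all 4 spleen libraries, Klre1 at 0 in both WT spleen libraries, and Klra8 and Klra4 at 0 in WT tumor library 2. For genotype edgeR called 0 in either tissue, with 2 in tumor and 0 in spleen at an unadjusted p under 0.05, and DESeq2 called Sgpp1 and S1pr5 higher in KO tumor and 0 in spleen.

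All 24 genes of receptor signaling, of which 1 was listed under 2 symbols, were tested in WT, and edgeR called 1 higher and 2 lower in tumor, with 6 at an unadjusted p under 0.05 and DESeq2 calling 3 higher and 3 lower. Rgs2, a brake on G protein signaling, stood at 215 and 296 RPKM in WT tumor, 25.4 and 38.1 RPKM in WT spleen, 123 and 157 RPKM in KO tumor and 24.2 and 23.7 RPKM in KO spleen. It rose by 3.003 in WT (adjusted p = 0.00827 from edgeR) and by 2.56 in KO (adjusted p = 0.0374), where it was the only edgeR call of the list, with 10 of 24 genes at an unadjusted p under 0.05 in either direction and DESeq2 calling 6 higher and 1 lower. In WT, Rgs10 fell by 2.02 (adjusted p = 0.0375 from edgeR) and Grk6, a kinase that desensitizes chemokine receptors, by 2.00 (adjusted p = 0.0264). The most abundant of the list were Coro1a, Rac2 and Gnai2, at 994 and 1153, 609.8 and 815 and 311 and 319.7 RPKM in WT tumor, and edgeR did not call them. Grk6 stood at 7.41 and 7.11 RPKM in WT tumor, 24.4 and 33.4 RPKM in WT spleen, 26.9 and 47.5 RPKM in KO tumor and 32.3 and 26.9 RPKM in KO spleen, so that both WT tumor libraries were below the other 6. For genotype edgeR called 0 in either tissue, with 5 in tumor and 1 in spleen at an unadjusted p under 0.05, and DESeq2 called Grk6 and Rapgef1 higher in KO tumor and 0 in spleen.

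The remaining marker lists were those of B cells, neutrophils and fibroblasts. The 6 B cell genes, led by Cd79b, summed to 28.7 and 7.40 RPKM in KO tumor, 12.05 and 17.3 RPKM in WT tumor, 33.8 and 60.7 RPKM in WT spleen and 28.01 and 31.7 RPKM in KO spleen, with Pax5 at 0 in KO tumor library 2 and both WT tumor libraries and Ms4a1 at 0 in WT tumor library 2. The 6 neutrophil genes, led by S100a9, summed to 484 and 316 RPKM in KO tumor, 114 and 26.3 RPKM in WT tumor, 6.14 and 30.3 RPKM in WT spleen and 8.98 and 15.4 RPKM in KO spleen, with Ly6g at 0 in KO spleen library 1 and S100a8, S100a9 and Ly6g at 0 in WT spleen library 1. The 6 fibroblast genes, led by Col1a1, summed to at most 1.958 RPKM in any library, with Lum and Pdgfra at 0 in 7 of 8, Col3a1 in the 4 spleen libraries, Dcn in 3 libraries and Col1a2 in KO tumor library 2.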

How the data were processed

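Ultra-low-input RNA-seq of sorted eTreg cells gave 8 libraries in 4 groups of 2. The authors trimmed reads with Trimmomatic 0.36, aligned them to GRCm38 with STAR 2.5.2b and counted unique reads within exons with featureCounts of Subread 1.5.2, and the deposited raw counts per gene were used as they are. Whether strand was used is not stated. The deposited normalized counts restate these values for fewer genes and were not used.

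Libraries held 27834676 to 43903859 counts, so that 3 counts equal 0.0644 to 0.112 CPM. Between replicates, chi-square per degree of freedom was 37.2 in KO spleen, 315 in WT spleen, 344 in KO tumor and 113 in WT tumor, where counting error alone gives about 1.

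In R 4.3.3, edgeR 4.0.16 with limma 3.58.1 (filterByExpr, TMM, quasi-likelihood test) was fitted to the 4 libraries of each comparison, and to all 8 for the genotype effect in both tissues and the interaction. A call needs an adjusted p under 0.05 over all genes tested and a log2 fold change beyond 1. DESeq2 1.42.0, the study's own test, was an alternative. The other alternatives were size factors, filters, fold change thresholds, thinning, a replicate block, leaving out each library, TPM for the order of levels and a prior count of 0.5 in place of 2 for similar genes. Scaling to CD3 transcripts and a crossed block were added later. The code was tested on simulated data. Named are the members with their 3 most similar genes, of each pathway list genes among those called and those highest in mean RPKM, and of each marker list the most abundant gene and those at 0. Foxp3, Cd4, Cd8a, Bach2, Ccl19, Ccl21a and Ccl28 fall outside this rule and were chosen after their values were seen. The same holds for Flt3, Cd209a, Itgax, Batf3, Zbtb46 and Siglech of dendritic cells and for Sdc1, Mzb1 and Derl3 of plasma cells. The members and the gene lists were chosen with earlier results of these data known.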

Additional observations from a re-analysis of the deposited data

Results flagged for a closer look

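For 3 receptors the groups lay apart without overlap in both of 2 matching comparisons, in opposite directions, which held for 7.86% of the 14659 genes tested in all 4 comparisons of 2 groups. Ccr8 was higher in tumor than in spleen in WT and lower in KO, with an interaction of -3.17 on the log2 scale (adjusted p = 0.177 from edgeR). The difference in KO was small, at -0.39 (standard error 0.28, adjusted p = 0.400 from edgeR). The nearest libraries there stood at 70.7 RPKM in KO tumor and 77.0 RPKM in KO spleen. Ccr4 was higher in KO than in WT in spleen and lower in tumor, with an interaction of -3.61 (adjusted p = 0.177 from edgeR). Cxcr3 did both, with an interaction of -2.28 (adjusted p = 0.329 from edgeR). edgeR called none of the 3 interactions, each of which had an unadjusted p under 0.05, and DESeq2 called all 3. With scaling to CD3 transcripts the value of Ccr8 in KO tumor against KO spleen turned to 1.23 (adjusted p = 0.545 from edgeR, range 0.324 to 0.688 over 12 alternatives), which was not called, and in the ratio to CD3 the 2 groups overlapped. The median over all genes moved to 1.43 in this comparison with that scaling, so the turn of sign was not particular to Ccr8. That scaling gave, for KO against WT tumor, -0.61 for Ccr4 (adjusted p = 0.720 from edgeR, range 0.000665 to 0.720 over 11 alternatives) and -0.70 for Cxcr3 (adjusted p = 0.693 from edgeR, range 0.00481 to 0.693 over 11 alternatives). The median over all genes there was 1.37. Ccr4 overlapped between genotypes in tumor per CD3, per Foxp3 and per Treg identity transcript. Of all genes, 1.78%, 0.289% and 0.307% were lower in KO without overlap on these ratios, and 36.1%, 93.3% and 95.4% were higher. Since so few genes were lower on any of them, the overlap cannot decide whether Ccr4 ran in opposite directions. Cxcr3 in KO tumor against KO spleen gave -0.52 with that scaling (adjusted p = 0.777 from edgeR, range 0.00435 to 0.777 over 12 alternatives) with overlap per CD3 transcript. In tumor KO was higher than WT for Cxcr3 per Treg identity transcript, as 95.4% of genes were. The genotype values of Cxcr4, S1pr1 and Ccr10 also had opposite signs in the tissues, with groups that overlapped in 1 of them.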

How the results depend on the processing

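Of 650 values of single receptors under the alternatives, 567 kept direction and side of the threshold, 19 fell short of it, 51 newly passed it and 13 changed sign. The settings with no fold change threshold and with a log2 fold change over 2 reuse the main fit, so only the threshold differs there. With the latter, S1pr1 in WT tumor against spleen fell short at -1.95 (adjusted p = 0.0450 from edgeR). Both count among the alternatives of each adjusted p range. A value uncalled in the main fit counts as kept while it stays uncalled, so the 567 do not measure how stable calls were. All 19 that fell short were calls of the main fit. The sign changes include those under scaling to CD3 transcripts, which shifted the median over all genes (below). The cause was not tested for any change below.

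In WT tumor against WT spleen 5 receptors were called by edgeR, and 2 with edgeR on all 8 libraries. Leaving out 1 library gave 2 (without WT spleen library 2) to 4 (without WT spleen library 1). In KO tumor against KO spleen 2 were called, but 6 by DESeq2 on the same 4 libraries, 6 by DESeq2 on all 8, 5 by edgeR on all 8 and 6 with no filter. Leaving out 1 library gave 0 (without either KO spleen library, when 0 genes of any kind were called) to 6 (without KO tumor library 1, with 3549 of 17976 genes called), and 5 without KO tumor library 2 (4958 of 18484 genes), against 228 of 16933 with all 4. A lone library is assumed to vary like the other group.

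In KO against WT tumor 0 were called by edgeR, with 3 at an unadjusted p under 0.05, but 3 by DESeq2 on the same 4 libraries, 3 by DESeq2 on all 8, 1 by edgeR on all 8 and 3 with no filter. Leaving out 1 library gave 0 each time. In KO against WT spleen 0 were called by edgeR, with 2 at an unadjusted p under 0.05 and 0 by DESeq2, and leaving out 1 library gave 0 to 1 (Ccr4, without WT spleen library 1, with 3972 of 18008 genes called). For the genotype effect in both tissues DESeq2 called 1 and edgeR with no filter 1, against 0 by edgeR with its filter and 1 at an unadjusted p under 0.05. For the interaction DESeq2 called 3 and edgeR with no filter 4, against 0 by edgeR with its filter and 5 at an unadjusted p under 0.05.

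Replicate numbers were not shown to pair libraries. With a replicate block, KO against WT tumor gave 3 calls, Ccr8, Ccr4 and Cxcr3 (728 of 15935 genes), and Cxcr6 turned to -0.39. KO tumor against KO spleen gave 2 calls with that block. Same-numbered libraries deviated in opposite directions in KO spleen and KO tumor (correlation -0.220), and in the same direction in KO and WT tumor (0.234) and in KO and WT spleen (0.155). For KO tumor against KO spleen a crossed replicate block, chosen after seeing the data, was added and gave 5.

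With 1 library left out, Ccr4 in WT tumor against WT spleen ranged from -0.64 to 0.17 and was 0.09 without WT tumor library 1. In KO against WT tumor Ccr2 ranged from -1.35 to 0.25, Cxcr4 from -0.43 to 0.22 (0.11 without KO tumor library 2) and Cxcr6 from -1.69 to 0.89.

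Scaling to CD3 transcripts, chosen after seeing the data, moved the median log2 fold change of all genes to 0.42 in WT tumor against spleen, 1.43 in KO tumor against spleen, 1.37 in KO against WT tumor, 0.35 in KO against WT spleen, 0.86 for the genotype effect in both tissues and 1.05 for the interaction. Ccr4 turned to 0.12 in WT tumor against spleen and Ccr8 to 1.23 in KO tumor against spleen. In KO tumor against spleen edgeR lost Ccr4 and S1pr1 and newly called Ccr2 (4.91, adjusted p = 0.0178) and Ccr10 (-5.34, adjusted p = 0.0129). In KO against WT tumor Ccr2 turned to 1.45, Cxcr4 to 1.44, S1pr1 to 0.62 and Ccr10 to 0.13. Since the median over all genes moved there to 1.37, these turns do not set the receptors apart from other genes.

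The order of the receptors by mean level was the same with TPM in all 4 groups, and 26 of 27 similar genes were also found with the other prior count. Depth limits Ccr10 in tumor most, with 2 counts in KO tumor library 2.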
